A study of Mus musculus with 8 samples.

Results

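The pentose phosphate enzymes were examined here as 7 genes, found by their symbols among the 54532 genes of the deposited table: *G6pdx*, *Pgls* and *Pgd* of the oxidative arm, and *Rpia*, *Rpe*, *Tkt* and *Taldo1* of the non-oxidative arm. RNA-Seq counts came from LSK cells, the lineage-negative, Sca-1+, c-Kit+ compartment of mouse bone marrow that holds stem and progenitor cells, sorted by the surface protein EpCAM into 4 *Zeb1-/- EpCAM+* and 4 *Zeb1-/- EpCAM-* libraries. All 8 came from *Zeb1 fl/fl;Mx1-Cre* mice on a C57BL/6 background, aged 8 to 12 weeks, in which pIpC had induced Cre, and the cells were taken 14 days after the last injection. Both fractions therefore share this genotype and these injections, and no control mice enter the comparison. Mx1-Cre responds to interferon and also recombines outside blood cells, and pIpC is an inducer of interferon. The comparison asks how the transcripts of this pathway differ between *Zeb1-/- LSK* cells with and without EpCAM.

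The pentose phosphate pathway branches from glycolysis at glucose-6-phosphate. Its oxidative arm makes NADPH, used for reductive synthesis and for reducing glutathione, and yields ribulose-5-phosphate. Its non-oxidative arm interconverts sugar phosphates reversibly, so that ribose-5-phosphate can be made for nucleotides or returned to glycolysis. Proliferating blood progenitors use the pathway for nucleotides and lipids, and myeloid cells and red cells also draw on its NADPH.

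The 8 libraries held 14114491 to 17073546 reads on genes. *Epcam* separated the fractions, with 161 to 234 normalised counts (CPM, scaled to library size with factors from the trimmed mean of M values, TMM) in *Zeb1-/- EpCAM+* and 1.25 to 8.99 CPM in *Zeb1-/- EpCAM-* libraries. *Zeb1* reads were at 14.8 to 23.7 CPM and 9.49 to 14.0 CPM (log2 fold change 0.72, edgeR, Benjamini-Hochberg adjusted p = 0.00798), and a count summed over a whole gene does not check a deletion of part of it. The LSK markers *Kit* and *Ly6a* were detected in both fractions, at means of 285 and 208 CPM for *Kit* and of 201 and 41.3 CPM for *Ly6a* in *EpCAM+* and *EpCAM-* libraries. *Zeb1-/- EpCAM+* replicate 1 stood apart in its summed B and plasma cell markers, at 4081 CPM against 472 to 743 CPM in the other 3 *EpCAM+* libraries, and member values without it are given below. Of 13560 genes that passed the filter on low counts, 42.6% differed between the fractions by edgeR's quasi-likelihood test at a Benjamini-Hochberg adjusted p under 0.05, with 21.8% higher and 20.8% lower in *EpCAM+* libraries. Of the called genes 48.8% were lower, against 36.4% with upper-quartile scaling and 37.3% with library totals, which moved the median over all tested genes from 0.02 to 0.11 on the log2 scale.

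Promoter sequences are shown for the members in which a searched motif matched, since *Zeb1* encodes an E-box binding repressor and the antioxidant regulator Nrf2 is known to act on genes of this pathway. RefSeq promoters of GRCm38.p6 were matched for 7 of 7 members, with 8 start sites because *Pgd* had a second one. Windows of 250 bases before to 50 bases after each start were searched on both strands for TGACNNNGC (core of the antioxidant response element, ARE), CACGTG (the E-box of Myc and Max) and the E-boxes CAGGTG and CAGGTA. Each sequence below gives the 250 bases before the start, 5′ to 3′ on the strand of the gene, with matches in capitals, from chrX:74428881-74429130 (minus strand) for *G6pdx*, chr4:149166706-149166955 (minus strand) for *Pgd* and chr1:66700581-66700830 (plus strand) for *Rpe*.
G6pdx: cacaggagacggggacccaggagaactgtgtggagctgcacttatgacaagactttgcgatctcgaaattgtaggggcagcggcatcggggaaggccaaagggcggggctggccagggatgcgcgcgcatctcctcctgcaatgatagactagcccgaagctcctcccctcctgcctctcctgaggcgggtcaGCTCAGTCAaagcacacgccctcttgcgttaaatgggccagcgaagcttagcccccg
Pgd: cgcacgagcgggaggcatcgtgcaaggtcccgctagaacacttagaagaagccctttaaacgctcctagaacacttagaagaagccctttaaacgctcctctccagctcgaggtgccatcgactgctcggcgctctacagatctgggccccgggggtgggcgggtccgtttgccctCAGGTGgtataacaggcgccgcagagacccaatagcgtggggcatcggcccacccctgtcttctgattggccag
Rpe: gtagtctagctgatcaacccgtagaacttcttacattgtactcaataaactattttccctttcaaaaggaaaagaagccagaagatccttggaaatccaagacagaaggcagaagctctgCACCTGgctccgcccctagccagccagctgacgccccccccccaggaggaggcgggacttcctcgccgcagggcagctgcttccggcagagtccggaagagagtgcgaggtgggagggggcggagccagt

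The *G6pdx* window held the ARE core, read on the opposite strand, 57 bases before the start. The second start of *Pgd* also had this core, 4 bases after the start. The 250 bases before this second start, chr4:149166083-149166332, lay inside the annotated gene, and whether transcription starts there was not tested. Of all 32851 RefSeq promoters of this length 12.4% held the core. CAGGTG lay 74 bases before the first start of *Pgd* and, on the opposite strand as CACCTG, 130 bases before that of *Rpe*, with a match in 20.2% of all promoters. CACGTG, found in 7.15% of all promoters, and CAGGTA, found in 12%, were in none of the 8 member windows. G and C made up 52.0% to 64.4% of the 250 bases before the member starts, against a median of 52.4% over all promoters. These matches describe letters in a short window and do not measure binding.

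All 7 members passed the filter on low counts, and 6 of them were lower in *Zeb1-/- EpCAM+* than in *Zeb1-/- EpCAM-* libraries, while none was higher. The background is 20.8% of all tested genes lower. The 3 oxidative enzymes fell by the most on the fitted scale, *G6pdx* by 48.4%, *Pgd* by 39.9% and *Pgls* by 39.4%. *Tkt*, *Taldo1* and *Rpe* were lower by 31.1%, 30.4% and 26.3%. *Rpia*, the least abundant member, did not pass the test. The median log2 fold change of the 7 members was -0.54, beside 0.02 over all tested genes. In the same 6 members every *EpCAM+* library lay below every *EpCAM-* library, a pattern held by 20.0% of tested genes. In bulk libraries fewer cells of a type that expresses a gene and less of its RNA per cell cannot be told apart.

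**Figure D1:**
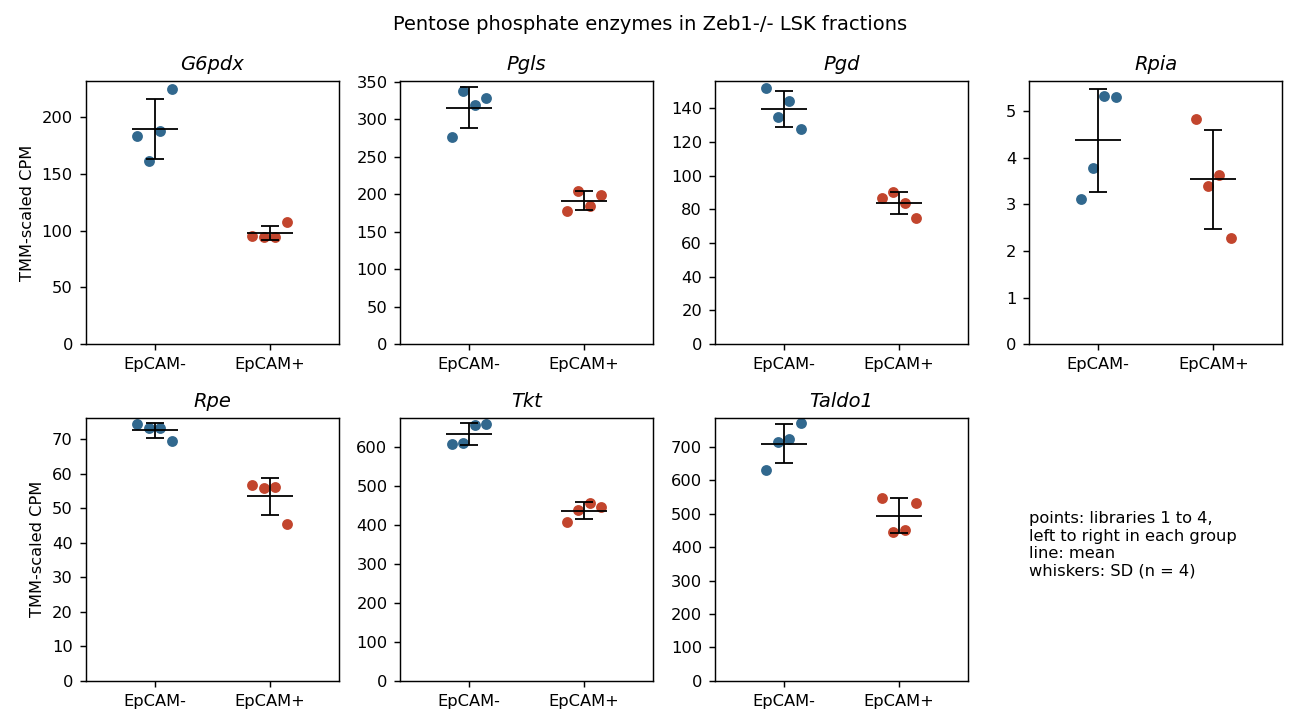
Level of each pentose phosphate enzyme in TMM-scaled CPM (vertical axes, each from 0) in 4 *Zeb1-/- EpCAM-* (blue) and 4 *Zeb1-/- EpCAM+* (red) libraries, with the mean and SD in black. The fractions are separate for 6 genes, and they overlap for *Rpia*, at 2.27 to 4.84 CPM in *EpCAM+* and 3.12 to 5.32 CPM in *EpCAM-* libraries.

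*G6pdx* (X:74409483-74429194, minus strand, GRCm38) encodes glucose-6-phosphate dehydrogenase, the first and rate-limiting step of the pathway and one that makes NADPH. Its level was 95.3, 94.1, 94.2 and 107 CPM in *EpCAM+* replicates 1 to 4, and 183, 161, 188 and 225 CPM in *EpCAM-* replicates 1 to 4. Replicate 4 was the highest library of both fractions, the other 3 *EpCAM+* libraries lay close together, and the lowest *EpCAM-* library was well above all of them. The means were 97.7 ± 6.39 and 189 ± 26.4 CPM (SD, n = 4), with a log2 fold change of -0.95 (SE 0.10, 95% interval -1.18 to -0.73, edgeR, Benjamini-Hochberg adjusted p = 0.000186). Of the 13560 tested genes, 452 had a lower log2 fold change than *G6pdx*.

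*Pgls* (8:71592176-71601092, plus strand) encodes 6-phosphogluconolactonase, which opens the lactone that *G6pdx* makes. It reached 177, 204, 185 and 199 CPM in the *EpCAM+* libraries and 277, 338, 319 and 328 CPM in the *EpCAM-* libraries. Replicate 1 was the lowest library of each fraction, and the fractions did not overlap. The log2 fold change was -0.72 (SE 0.08, 95% interval -0.91 to -0.54, edgeR, Benjamini-Hochberg adjusted p = 0.00025).

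*Pgd* (4:149149991-149166771, minus strand) encodes 6-phosphogluconate dehydrogenase, which makes NADPH again and releases ribulose-5-phosphate. The *EpCAM+* libraries held 86.8, 90.3, 83.6 and 75.1 CPM and the *EpCAM-* libraries 152, 135, 144 and 128 CPM. Replicate 4 was the lowest of each fraction here, unlike for *G6pdx*. The log2 fold change was -0.73 (SE 0.08, 95% interval -0.92 to -0.55, edgeR, Benjamini-Hochberg adjusted p = 0.000225), close to that of *Pgls*.

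*Rpia* (6:70765720-70792232, minus strand) encodes ribose-5-phosphate isomerase, the step that makes ribose-5-phosphate. It had 74, 60, 65 and 35 counts in *EpCAM+* replicates 1 to 4, or 4.84, 3.40, 3.63 and 2.27 CPM. In *EpCAM-* replicates 1 to 4 it had 50, 51, 78 and 72 counts, or 3.12, 3.77, 5.32 and 5.30 CPM. The fractions overlapped, with *EpCAM+* replicate 1 above *EpCAM-* replicates 1 and 2. The log2 fold change of -0.31 (SE 0.27) had a 95% interval of -0.91 to 0.30 (edgeR, Benjamini-Hochberg adjusted p = 0.383), which holds both 0 and the values of the 5 members other than *G6pdx*. The SD was 29.8% of the mean in *EpCAM+* and 25.3% in *EpCAM-* libraries, wider than for any other member.

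*Rpe* (1:66700831-66719805, plus strand) encodes ribulose-5-phosphate 3-epimerase, which makes the xylulose-5-phosphate that transketolase uses. Its level was 56.7, 55.8, 56.2 and 45.4 CPM in the *EpCAM+* libraries and 74.4, 73.3, 73.4 and 69.5 CPM in the *EpCAM-* libraries. In each fraction replicate 4 was the lowest and the other 3 were nearly level. The log2 fold change was -0.44 (SE 0.08, 95% interval -0.63 to -0.26, edgeR, Benjamini-Hochberg adjusted p = 0.00237), the smallest among the 6 called members.

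*Tkt* (14:30548359-30574720, plus strand) encodes transketolase, which moves carbon pairs between sugar phosphates. It was at 406, 439, 455 and 444 CPM in *EpCAM+* libraries and at 607, 608, 656 and 658 CPM in *EpCAM-* libraries. *Tkt* had the smallest SD relative to its mean in the *EpCAM+* fraction among the 7 members, 4.84%, and 4.54% in the *EpCAM-* fraction. Its log2 fold change was -0.54 (SE 0.07, 95% interval -0.69 to -0.38, edgeR, Benjamini-Hochberg adjusted p = 0.000449).

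*Taldo1* (7:141392199-141402968, plus strand) encodes transaldolase, the other enzyme that links the pathway back to glycolysis. It had 547, 447, 451 and 531 CPM in *EpCAM+* and 630, 714, 723 and 771 CPM in *EpCAM-* libraries. Replicate 1 was the highest *EpCAM+* library and the lowest *EpCAM-* library, so the fractions came closest there. The log2 fold change was -0.52 (SE 0.10, 95% interval -0.74 to -0.31, edgeR, Benjamini-Hochberg adjusted p = 0.00215).

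Libraries with the same replicate number deviated together, so the differences were also read within the 4 numbered pairs on the log2 CPM scale. The 6 called members were lower in *EpCAM+* in 4 of 4 pairs. The within-pair difference of *G6pdx* ran from -1.07 to -0.78, and that of *Taldo1* from -0.68 to -0.20. *Rpia* was lower in 3 of 4 pairs, with differences of 0.61, -0.14, -0.54 and -1.18 in pairs 1 to 4. Without *EpCAM+* replicate 1, the library with the high plasma cell markers, the log2 fold changes were -0.95 for *G6pdx*, -0.76 for *Pgd*, -0.69 for *Pgls*, -0.58 for *Taldo1*, -0.51 for *Tkt*, -0.48 for *Rpe* and -0.50 for *Rpia*, and the same 6 passed.

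Per length, the members kept 1 order in all 8 libraries. In the deposited FPKM (fragments scaled by transcript length and library size), *Taldo1* was highest, at 460 to 538 in *EpCAM+* and 620 to 715 in *EpCAM-* libraries, followed by *Tkt* at 241 to 281 and 344 to 376. *Pgls* came next, at 133 to 161 and 208 to 242 FPKM, and then *G6pdx*, at 76.1 to 85.0 and 123 to 169 FPKM. *Pgd* was at 46.7 to 59.3 and 75.5 to 95.5 FPKM, *Rpe* at 23.4 to 30.5 and 34.1 to 38.7 FPKM, and *Rpia* at 1.09 to 2.35 and 1.52 to 2.50 FPKM. No neighbours in this order overlapped within a fraction. The lengths behind the deposited FPKM are shorter than those in the length column of the same table, such as 1022 against 2171 bases for *Taldo1*, and with the longer lengths *Rpe* came before *Pgd*. *Rpia*, which supplies ribose-5-phosphate, was therefore the lowest member per length in both fractions and on both lengths.

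**Figure D2:**
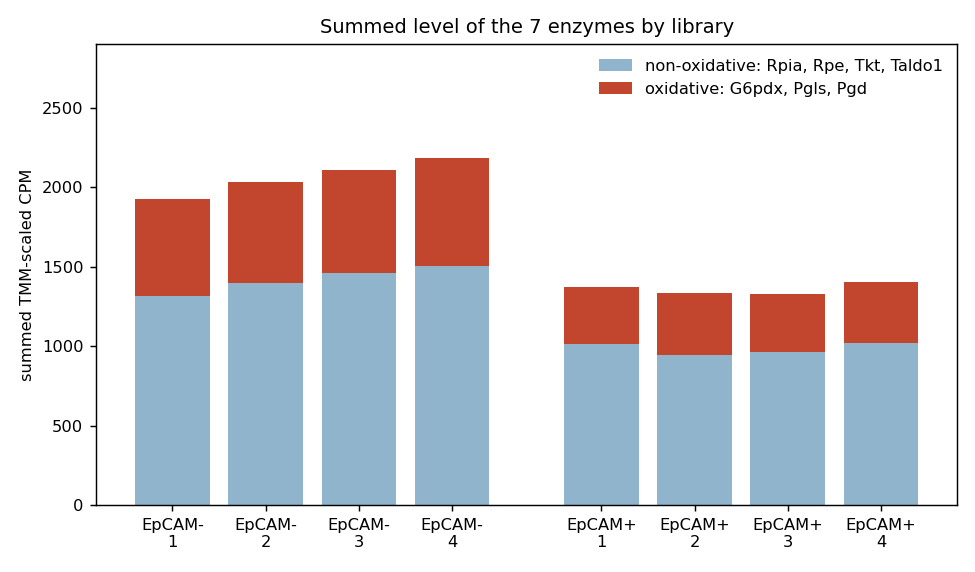
Summed TMM-scaled CPM (vertical axis, from 0) of the oxidative enzymes (red) stacked on the non-oxidative enzymes (blue) in each library. The 4 *EpCAM+* libraries sum to 1328 to 1404 CPM and the 4 *EpCAM-* libraries to 1926 to 2185 CPM.

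Summed over its 3 genes, the oxidative arm took 359 to 388 CPM in *EpCAM+* and 612 to 681 CPM in *EpCAM-* libraries. The 4 non-oxidative genes summed to 944 to 1023 CPM and 1314 to 1504 CPM. Both sums were lower in every *EpCAM+* library than in any *EpCAM-* library. The oxidative genes made up 26.1% to 29.1% of the reads on the 7 members in *EpCAM+* libraries and 30.9% to 31.8% in *EpCAM-* libraries, given as a description of reads, which long and abundant transcripts weigh most.

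Whether members differed in their response was tested in the 21 pairs of members, as the log2 ratio of their CPM within each library (0.5 CPM added), by an exact two-sided permutation test. The smallest p that 4 libraries against 4 allow is 0.0286, and 3 pairs reached it. The ratio of *G6pdx* to *Tkt* was lower in *EpCAM+* libraries by a log2 difference of -0.41 (95% interval -0.63 to -0.18), and that of *G6pdx* to *Taldo1* by -0.42 (95% interval -0.68 to -0.16). The ratio of *Pgd* to *Rpe* differed by -0.29 (95% interval -0.41 to -0.16). After Benjamini-Hochberg adjustment over the 21 pairs none passed 0.05, with a smallest adjusted p of 0.2 (exact permutation test). With 4 libraries a fraction a pair could pass only if many pairs were at the smallest p. This outcome therefore does not settle whether members differ in response. The intervals do not show that they respond alike: for *Pgls* against *Pgd* the difference was 0.01 (95% interval -0.33 to 0.35), and for *Tkt* against *Taldo1* it was -0.01 (95% interval -0.29 to 0.26).

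**Figure D3:**
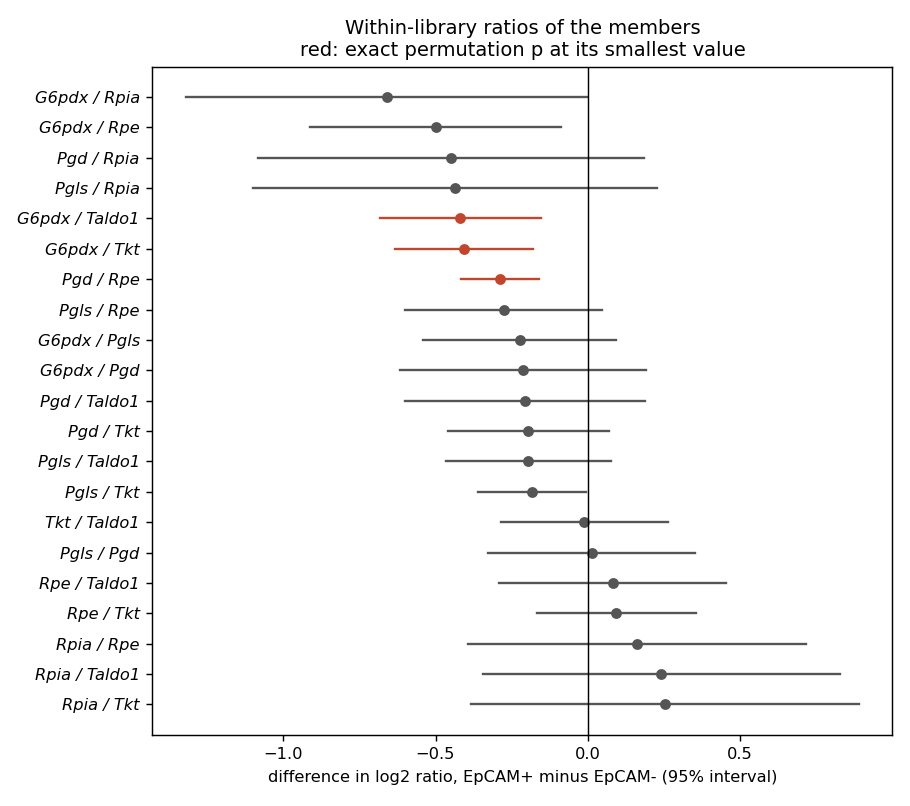
Difference between the fractions in the within-library log2 ratio of each pair of members (horizontal axis, *EpCAM+* minus *EpCAM-*, points with 95% intervals), ordered by size. The 3 pairs in red are those at the smallest p the exact permutation test allows, and the widest intervals belong to pairs with *Rpia*, such as -0.38 to 0.89 against *Tkt*.

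Exons of *G6pdx*, *Pgls* and *Rpe* overlap another gene by more than 1 base in GENCODE release M21. Its coordinates for the 7 members match the table. *Tkt* shares 1 exon base with *Mir3076* on the same strand. *G6pdx* shares 418 exon bases (13.6% of its exon length) with *Ikbkg* on the other strand, *Pgls* 776 bases (20.6%) with *Fam129c* on the same strand and *Rpe* 558 bases (17.9%) with *Kansl1l* on the other strand. Whether counting used strand is not given in the sources used here, so reads in these stretches are uncertain. *Ikbkg* was at 34.4 to 39.6 CPM in *EpCAM+* and 31.3 to 39.2 CPM in *EpCAM-* libraries, and *Fam129c* at 2.66 to 4.58 and 2.13 to 3.75 CPM. *Kansl1l* was at 23.6 to 26.5 and 17.1 to 23.5 CPM. *Ikbkg*, *Fam129c* and *Kansl1l* had fewer reads than the member they overlap, and none of these 3 had a negative log2 fold change (0.10, 0.29 and 0.36). *Kansl1l* was called higher in *EpCAM+* libraries (edgeR, Benjamini-Hochberg adjusted p = 0.0267), and *Ikbkg* and *Fam129c* did not pass.

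Genes that copy the members or handle the same sugars were then examined as a list of 21. Among the 17 that passed the filter on low counts, 11 were lower and 1 higher in *EpCAM+* libraries by edgeR's quasi-likelihood test (background 20.8% lower and 21.8% higher), and the median of the list was -0.38 on the log2 scale. *G6pd2*, a retrogene copy of *G6pdx*, and *Tktl2*, a relative of *Tkt*, had 0 counts in every library, where 3 counts would be 0.168 to 0.222 CPM. *Tktl1* and *Prps1l1* averaged under 0.3 CPM in both fractions and were not tested.

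*H6pd*, which encodes the counterpart of *G6pdx* inside the endoplasmic reticulum, did not pass, with 20.3, 17.9, 22.1 and 19.0 CPM in *EpCAM+* and 21.8, 14.1, 21.3 and 17.7 CPM in *EpCAM-* libraries. Its log2 fold change was 0.08 (SE 0.14, 95% interval -0.24 to 0.40, edgeR, Benjamini-Hochberg adjusted p = 0.675), and it was -0.04 without *EpCAM-* replicate 2. The ratio of *G6pdx* to *H6pd* counts was 4.26 to 5.65 in *EpCAM+* and 8.40 to 12.7 in *EpCAM-* libraries. This ratio was chosen after its values were seen and has no test.

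Among enzymes that handle sugars and their phosphates, 4 of the 7 named here were lower, 1 was higher and 2 did not pass. Over all tested genes 20.8% were lower and 21.8% higher. *Rbks*, ribokinase, had a log2 fold change of -0.78, and *Xylb*, xylulokinase, of -0.83. *Dera*, which cleaves deoxyribose-5-phosphate, was at -0.38, and *Pgm1*, a phosphomutase of sugars, at -0.77. In these 4 genes the adjusted p was at most 0.00903 (edgeR, Benjamini-Hochberg). *Xylb* had few reads, 30 to 58 counts in *EpCAM+* and 62 to 73 in *EpCAM-* libraries. *Pgm2*, the other phosphomutase, was higher by 0.26 (SE 0.09, adjusted p = 0.0366), and it lost its call without *EpCAM+* replicate 1, 2 or 3 or *EpCAM-* replicate 2, 3 or 4, with an adjusted p of up to 0.110. *Shpk*, sedoheptulokinase, at 0.11 (SE 0.18), and *Idnk*, gluconokinase, at 0.22 (SE 0.10), did not pass, although *Idnk* passed without *EpCAM-* replicate 2 (adjusted p = 0.0119) and with upper-quartile scaling or library totals.

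Enzymes that carry ribose-5-phosphate on to nucleotides were also lower where they passed, beside a background of 20.8% lower and 21.8% higher. *Ppat*, the first committed step of purine synthesis, was at -0.58, *Umps*, which adds the ribose to pyrimidines, at -0.41, and *Aprt*, which salvages adenine, at -0.56. *Prps2*, a synthetase of the activated ribose PRPP, was at -0.26, its partner *Prpsap1* at -0.43 and the copy *Prps1l3* at -0.42. *Prps1*, at -0.35 (adjusted p = 0.0213), shares sequence with *Prps1l3*, so the split of reads between them is uncertain, and it lost its call without *EpCAM-* replicate 3 or 4 (adjusted p = 0.0591 and 0.0545) and under upper-quartile scaling or library totals, as *Prps2* did under these scalings (adjusted p = 0.0571 and 0.0735). *Prpsap2* had a log2 fold change of 0.16 (SE 0.13) and *Hprt*, which salvages hypoxanthine and guanine, of -0.18 (SE 0.10), and neither passed. With the replicate number as a block *Hprt* passed (adjusted p = 0.026).

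**Figure D4:**
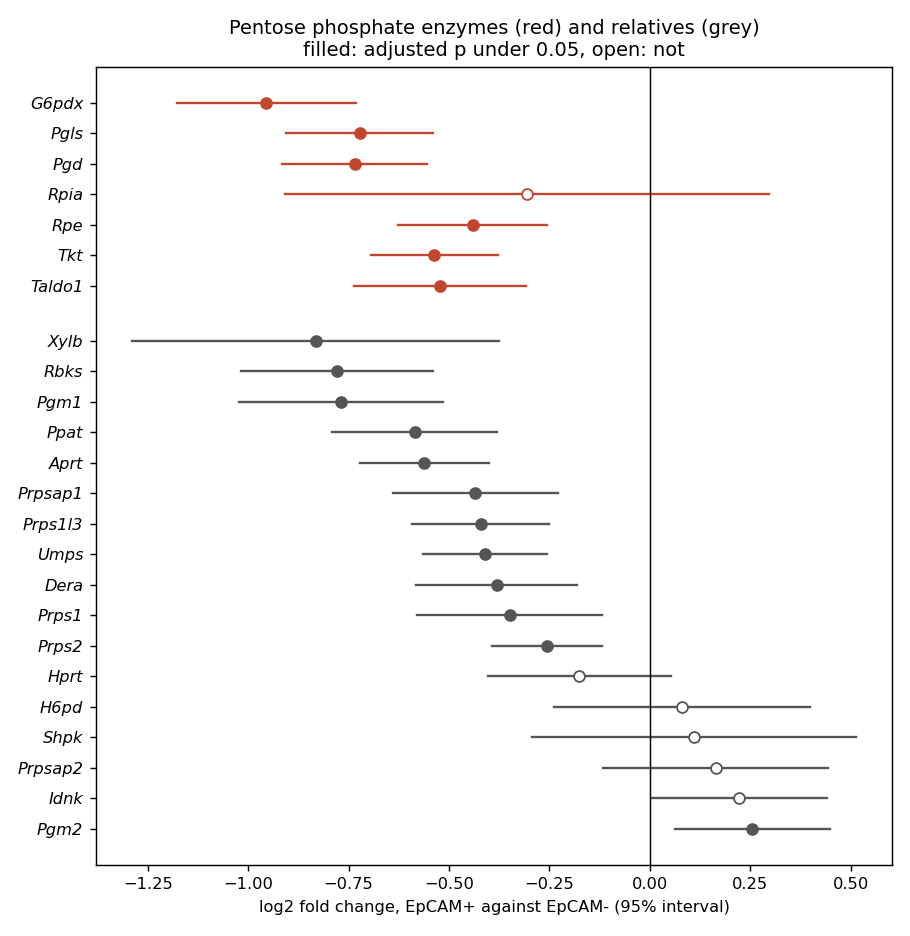
log2 fold change between the fractions (horizontal axis, with 95% intervals) for the 7 pentose phosphate enzymes (red) and the 17 tested relatives (grey), with filled points where the adjusted p was under 0.05. All 7 enzymes lie left of 0, from -0.95 to -0.31, and among the relatives *Pgm2* is the filled point to the right, at 0.26.

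Glycolytic genes at the points where the pathway leaves and rejoins glycolysis had 5 lower and 5 higher among 18 tested, beside a background of 20.8% lower and 21.8% higher, and the list median was 0.07 on the log2 scale. Their summed level was lower in every *EpCAM+* library than in any *EpCAM-* library, at 3054 to 3269 CPM against 3643 to 3891 CPM. The lower ones included *Hk3*, a hexokinase of myeloid cells (log2 fold change -1.07), *Gpi1*, which competes with *G6pdx* for glucose-6-phosphate (-0.51), *Aldoa*, the main aldolase (-0.38), and *Pfkm* (-0.50), a phosphofructokinase. The higher ones included *Slc2a3*, a glucose transporter (0.82), *Aldoc* (1.67), *Fbp1*, fructose bisphosphatase (0.86), and *Pfkfb3* (0.50), which makes an activator of phosphofructokinase. *Aldoa* is listed under 2 identifiers and the one with more counts was used. The number called fell from 10 to 6 without *EpCAM+* replicate 1 or *EpCAM-* replicate 3. *Pfkfb3* lost its call without either of these 2 libraries (adjusted p = 0.0541 and 0.0516), and *Pfkm* lost its call under upper-quartile scaling or library totals and without *EpCAM+* replicate 1, 3 or 4 or *EpCAM-* replicate 3 or 4 (adjusted p up to 0.0889).

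Genes listed here for other routes to NADPH were lower in 7 and higher in 1 of 13 tested, beside a background of 20.8% lower and 21.8% higher. The list's median was -0.49 on the log2 scale. *Idh1*, cytosolic isocitrate dehydrogenase, was at -1.16, *Mthfd1* of the folate cycle at -1.32, *Me2*, a mitochondrial malic enzyme, at -0.66, and *Nadk*, which makes NADP from NAD, at -0.55. *Aldh1l1*, a folate enzyme, was at 0.89 (adjusted p = 0.0238) and lost its call without *EpCAM+* replicate 1 or 2 or *EpCAM-* replicate 3 or 4 (adjusted p up to 0.0691). Among 23 tested users of NADPH, 10 were lower and 2 higher, beside the same background, with a median of -0.34. *Blvrb*, a reductase abundant in red cell precursors, was at -2.95, *Gsr*, glutathione reductase, at -0.95, and *Rrm2* of ribonucleotide reductase at -0.71. *Por*, at 0.28, and *Cyba*, at 0.38, were the higher ones. *Por* lost its call without any 1 of 6 libraries, all except *EpCAM+* replicate 4 and *EpCAM-* replicate 4 (adjusted p up to 0.0788), and *Cyba* without *EpCAM+* replicate 1 or 4 or *EpCAM-* replicate 2, 3 or 4 (adjusted p up to 0.0995).

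Among 16 tested regulators of the pathway, 5 were lower and 2 higher, beside a background of 20.8% lower and 21.8% higher, and the list's median was -0.26 on the log2 scale. *Nfe2l2*, which encodes Nrf2, was at -0.57, *Trp53*, whose protein can bind and inhibit glucose-6-phosphate dehydrogenase, at -0.41, and *Plk1*, a mitotic kinase that acts on the same enzyme, at -0.56. *Myc* was at -0.40 (adjusted p = 0.0265), and it lost its call under upper-quartile scaling or library totals and without *EpCAM+* replicate 1 or *EpCAM-* replicate 3 or 4 (adjusted p up to 0.0777). *Ogt*, which attaches a sugar to proteins, was among the higher ones (0.36).

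**Figure D5:**
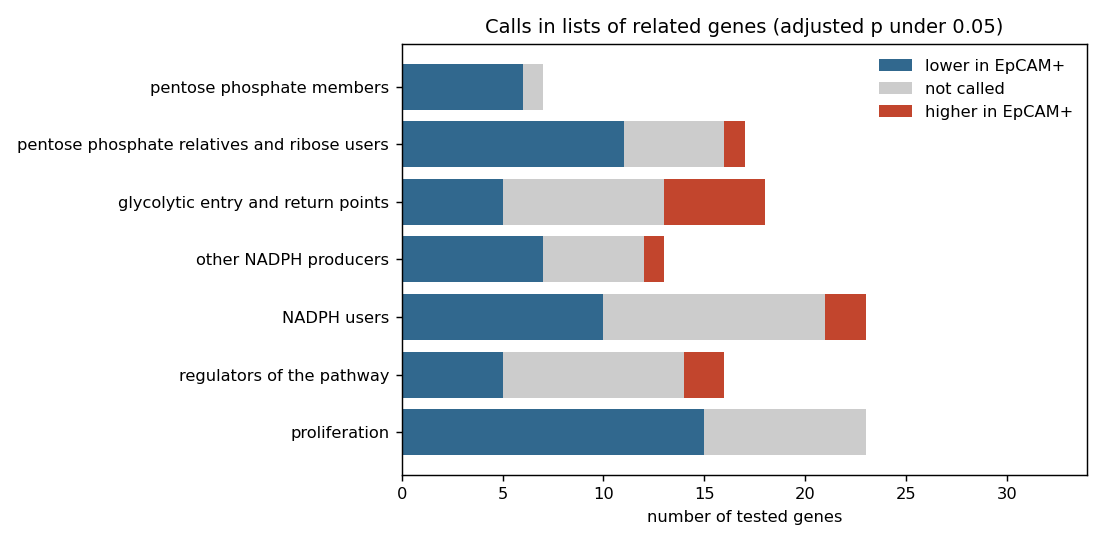
Number of tested genes (horizontal axis) that were lower (blue), not called (grey) or higher (red) in *EpCAM+* libraries in each list. The pentose phosphate members are 6 lower and 1 not called, the proliferation genes 15 lower and 8 not called, and the glycolytic list is split evenly, with 5 lower and 5 higher.

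Some genes of dividing cells and of the myeloid and erythroid lineages also differed between the fractions, and others of the same lists did not. Of 23 proliferation genes 15 were lower and none higher in *EpCAM+* libraries by edgeR's quasi-likelihood test, and their summed level was 5415 to 6037 CPM against 6728 to 7798 CPM. Of all tested genes 20.8% were lower and 21.8% higher, the background for this list and for the marker lists that follow. The lower ones included *Ccna2* (log2 fold change -0.57), *Aurka* (-0.51), *Mcm5* (-0.42) and *Mcm7* (-0.41), and 9 passed with library totals. *Ccna2* and *Aurka* act in mitotic entry, and the *Mcm* genes encode the replicative helicase. Among the 8 proliferation genes not called were *Mki67* (-0.12), *Top2a* (-0.10), *Pcna* (-0.16) and *Cenpf* (0.03). Summed neutrophil and monocyte markers were at 1803 to 2634 CPM in *EpCAM+* and 12407 to 19775 CPM in *EpCAM-* libraries, with 5 of 14 tested lower and 1 higher. *Mpo*, which made up most of the *EpCAM-* sum, was at 8739 to 12205 CPM in *EpCAM-* and 566 to 1175 CPM in *EpCAM+* libraries. The 8 not called included *Ltf*, *Camp*, *Ngp*, *S100a8*, *S100a9* and *Itgam*, and *Lyz2* was the higher one (0.68). Summed erythroid markers were at 2344 to 3885 and 4418 to 11243 CPM, with 7 of 11 lower and 1 higher, *Hbb-bt* (1.35). Summed mast cell and basophil markers were at 267 to 292 and 403 to 695 CPM, with 3 of 6 lower.

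The other marker lists had no gene called lower, beside the background of 20.8% lower and 21.8% higher. LSK markers were higher in 10 of 12, at 2915 to 3186 CPM against 1516 to 2331 CPM. B and plasma cell markers were higher in 4 of 9 and dendritic cell markers in 6 of 9, with sums of 472 to 4081 against 218 to 339 CPM and of 564 to 1287 against 425 to 652 CPM. These sums did not overlap for the B and plasma cell list, and they did for the dendritic cell list. *Pax5*, which defines B cells, had 0 counts in every library. Megakaryocyte markers were higher in 2 of 7 tested, at 409 to 656 against 131 to 357 CPM. T and NK cell markers were higher in 2 of 3 tested, at 687 to 853 against 702 to 912 CPM. *Nkg7*, not called, made up most of the T and NK cell sums, at 631 to 794 and 684 to 883 CPM. The higher genes of this list were *Lck* and *Cd4*, with *Cd4* at means of only 1.98 and 0.984 CPM. *Cd3e* had at most 1 count in any library and was not tested. The part of these marker genes and of the proliferation genes in the lower pentose phosphate levels was not tested.

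The genes whose profile over the 8 libraries was most like the mean profile of the members were found by the root mean square difference of centred log2 CPM. They were *Kmt5a*, a histone methyltransferase (0.023), *Adrm1*, a ubiquitin receptor of the proteasome (0.033), *Nmt1*, a protein myristoyltransferase (0.046), *Golt1b* of Golgi transport (0.047) and *Abcf2* (0.048). Their log2 fold changes lay between -0.62 and -0.56.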

How the data were processed

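The authors sorted LSK cells, amplified RNA with SMART-Seq v4, removed low-quality reads, aligned the rest to GRCm38.p6 with STAR 2.6.1d and counted reads per gene with featureCounts 1.5.0-p3, which gave the deposited raw counts that all tests here use. The FPKM values were computed by the authors from gene length and counts before deposit and serve here only to order the members per length. The deposited table also holds the authors' log2 fold changes and p-values from DESeq2 1.20.0, for the fractions and for single pairs of libraries, and none of these was used. The annotation release, the strand setting and the handling of multi-mapping reads are not given in the sources used here.

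Genes were filtered with filterByExpr, scaled by TMM and tested with edgeR 4.0.16 in R 4.3.3 (quasi-likelihood, two-sided, Benjamini-Hochberg adjustment over all tested genes, threshold 0.05), with standard errors derived from the F statistic. CPM were scaled with TMM factors, and a prior count of 2 was used for log2 CPM. Ratios of members were compared by exact permutation tests. Members and lists were chosen with earlier results of these data known. Named genes are the 7 members, all tested relatives, up to 4 called genes in each direction with the smallest adjusted p from each other list, and the 5 genes most like the members; some genes that this rule names are not reported here. *Kit*, *Ly6a*, *Mpo*, *Car1*, *Pax5*, *Cd3e*, *Me3* and the genes overlapping members were named beside these. So were the uncalled or higher genes given for the proliferation, neutrophil and monocyte, erythroid, mast cell and basophil, and T and NK cell lists. *Idh2* and *Me1* were also added. None of these additions was followed under the alternatives.

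Samples are numbered 1 to 4 in each fraction. The numbers pair the samples: same-numbered libraries deviated together across genes (correlation 0.205 to 0.356 in 4 pairs, against -0.216 to 0.0396 in 12 other pairs). What they share is not given in the sources used here, and the block is an alternative. No libraries within a fraction were duplicates (chi-square per degree of freedom 10.3 to 97.4). P-values measure the spread between the 4 libraries of each fraction, some of which may be technical. Reads carry no molecular identifiers, so the floor of 3 counts covers counting error only. The procedure was tested on simulated data in which far fewer genes changed than differed here, so scaling under so broad a difference was not tested. Alternatives were DESeq2 1.42.0, limma-trend (limma 3.58.1), other scalings and filters, protein-coding genes only, the block and each library left out. Plots were made in matplotlib 3.10.9 (Python 3.11.15).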

Additional observations from a re-analysis of the deposited data

Results flagged for a closer look

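In *Zeb1-/- EpCAM+* replicate 4 the level of *G6pdx*, 107 CPM, lay far above the other 3 libraries of its fraction, with a gap to the nearest of 0.905 of the whole range. In the same library *Rpe*, at 45.4 CPM, lay far below the others, with a gap of 0.921 of the range. Both gaps pass Dixon's 95% critical value for 4 samples, which chance passes in about 1 in 20 groups, and 14 groups were examined. Without this library the log2 fold change was -1.01 for *G6pdx* and -0.37 for *Rpe*, and both passed the test.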

How the results depend on the processing

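The log2 fold changes of the 7 members kept their direction and their side of the threshold in all 17 alternatives, from -1.03 to -0.87 for *G6pdx*, -0.79 to -0.64 for *Pgls*, -0.78 to -0.65 for *Pgd*, -0.56 to -0.45 for *Tkt*, -0.58 to -0.44 for *Taldo1* and -0.48 to -0.36 for *Rpe*, with a largest adjusted p of 0.0135 among these 6. *Rpia* ranged from -0.50 to -0.15 (adjusted p 0.188 to 0.675). The replicate block called 6818 genes and 6 members, with a log2 fold change of -0.95 for *G6pdx*, and among named genes it changed the call of *Hprt* and no other. Leaving out 1 library each, the calls in the glycolytic list ranged from 6 to 10, *H6pd* from -0.042 to 0.16 and *Shpk* from -0.0086 to 0.23, both lowest without *EpCAM-* replicate 2. Library totals left 9 proliferation calls of 15, where the median of all genes also moved. Counting only the 250 bases before a start, 1 member and not 2 held the ARE core, by construction. Of 867 values of 51 other named genes, 819 kept direction and side, 42 lost and 4 gained a call and 2 reversed, none of them called. The cause was not tested. *Rpia* had 35 to 78 counts a library, the fewest of the members. With 4 libraries a fraction, the exact test of ratios could pass its threshold only with many pairs at the smallest p.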
